A study of Homo sapiens with 6 samples.

Results

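Core factors of nonsense-mediated mRNA decay were measured as transcripts in U251 cells after knockdown of the ribosomal protein gene RPL13. The 9 genes were chosen by symbol and function, with earlier results of these data known: UPF1, UPF2, UPF3A, UPF3B, SMG1, SMG5, SMG6, SMG8 and SMG9. All 9 were found among the 21429 genes of the deposited table, and all 9 passed the filter on low values that left 15327 genes for testing. Each of the 2 groups held 3 libraries. The siRPL13 cells were electroporated with an siRNA against RPL13, and the siNC cells with a control siRNA. Both groups were the established line U251, derived from a human glioma, into which an APP copy with K670N and M671L had been stably introduced, so the controls carry the mutant precursor too. Both also received doxycycline at 1 µg/mL at the medium change 24 h after electroporation, which switched that precursor on, and both were harvested at 72 h. The line is 1 cell line, and the labels do not say whether it is 1 clone.

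Nonsense-mediated decay removes mRNAs on which the ribosome stops translating too early or in an unusual context. UPF1, an RNA helicase, is joined by UPF2 and by UPF3A or UPF3B, which link it to exon junction complexes left downstream of the stop codon. The kinase SMG1, held in check by SMG8 and SMG9, phosphorylates UPF1, and the phosphorylated helicase recruits the endonuclease SMG6 and the adaptor SMG5 to destroy the message. Several of these factors are encoded by mRNAs that the pathway itself degrades, so their transcripts are often read as a gauge of its activity. An mRNA level shows neither the protein level nor the activity of the pathway.

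Each gene has 1 value per library on a log2 scale, the regularized log (rlog), and the read depth behind it is unknown. RPL13 had 13.03, 13.12 and 14.09 in siRPL13 replicates 1 to 3, against 14.05, 14.16 and 14.18 in siNC replicates 1 to 3. The library labelled siRPL13 replicate 3 lay within the siNC range and so went against its label, and differences are given with it (6 libraries) and without it (5 libraries). Of 8 markers of glia and glioma lines, 7 stood at 12.05 or more in all 6 libraries (VIM, NES, CD44, EGFR, SOX2, SOX9 and GFAP) and S100B at 5.48 to 5.83. VIM and NES fell, by 0.31 ± 0.07 and 0.34 ± 0.05 (SE, 5 libraries, adjusted p 0.0091 and 0.00227, limma), and with GFAP they lay below every siNC library in all 3 siRPL13 libraries. The leukocyte markers PTPRC, AIF1 and C1QA and the epithelial marker EPCAM were not analysed here. Among other cell type markers the endothelial CDH5 was lower in siRPL13, at 5.84 to 6.25 against 6.30 to 6.43 in siNC, the neuronal SNAP25 did not pass the threshold and RBFOX3, also neuronal, lay near 0 at 0.20 to 0.23, and the part of these markers in the results was not tested. The median rlog over all genes tested lay between 9.12 and 9.13 in every library. With 6 libraries 0 of 15327 genes, 0% of them, passed an adjusted p of 0.05 in the limma test, and 1275 genes (8.32%) had an unadjusted p under 0.05. With 5 libraries 1291 genes (8.42%) were higher in siRPL13 and 1642 (10.7%) lower, 19.1% together. The words rose and fell are used for an adjusted p under 0.05 by limma in the comparison of 5 libraries. That comparison was chosen with the RPL13 values known. It is given beside the comparison of 6 libraries and not in its place. Labels call the libraries biological replicates without saying how the cultures were kept apart, so p-values measure the spread between these libraries.

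The 9 factors did not move together. SMG1, the kinase of the pathway, and UPF3B, the exon junction adaptor, rose, by 0.32 ± 0.06 and 0.22 ± 0.07 (log2 difference ± SE, 2 siRPL13 against 3 siNC libraries). SMG6, the endonuclease, fell by 0.18 ± 0.05. The other 6 factors did not pass the threshold. Of the 9 factors 2 rose and 1 fell, beside 19.1% of all genes tested, and the median difference of the 9 was 0.04 beside -0.0014 over all genes. Whether this count differs from that of other genes was not tested. With 6 libraries 0 of the 9 passed the limma test, the smallest adjusted p was 0.589, and 2 of the 9 (SMG1 and UPF3B) had an unadjusted p under 0.05, against 8.32% of all genes. With library weights, which gave the library labelled siRPL13 replicate 3 a weight of 0.163 and siRPL13 replicate 2 one of 7.19, SMG1, UPF3B, SMG6 and UPF1 passed with all 6 libraries (adjusted p 0.00108, 0.00608, 0.0124 and 0.0351, limma), as did 5309 of all genes. Without overlap of the groups, 3 of the 9 (SMG1, UPF3B and UPF3A) lay above siNC with 5 libraries and 4 (UPF1, SMG5, SMG6 and SMG9) below, against 24.7% and 26.6% of all genes, 51.3% together. An unadjusted p under 0.05 was found for 4 of the 9 with 5 libraries, against 33.4% of all genes. The count of factors past the threshold, 3 with 5 libraries, also depended on single libraries. It was 1 (SMG1) without siNC replicate 2 or 3, and 3 (UPF1, SMG6 and SMG1) without siNC replicate 1. The count over all genes moved as well, from 2933 to 2367, 2259 and 3748 without siNC replicates 2, 3 and 1. Leaving out siRPL13 replicate 1 or 2 as well leaves 1 siRPL13 library. The differences were then 0.29 and 0.35 for SMG1, 0.25 and 0.18 for UPF3B, and -0.17 and -0.19 for SMG6.

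**Figure D1:**
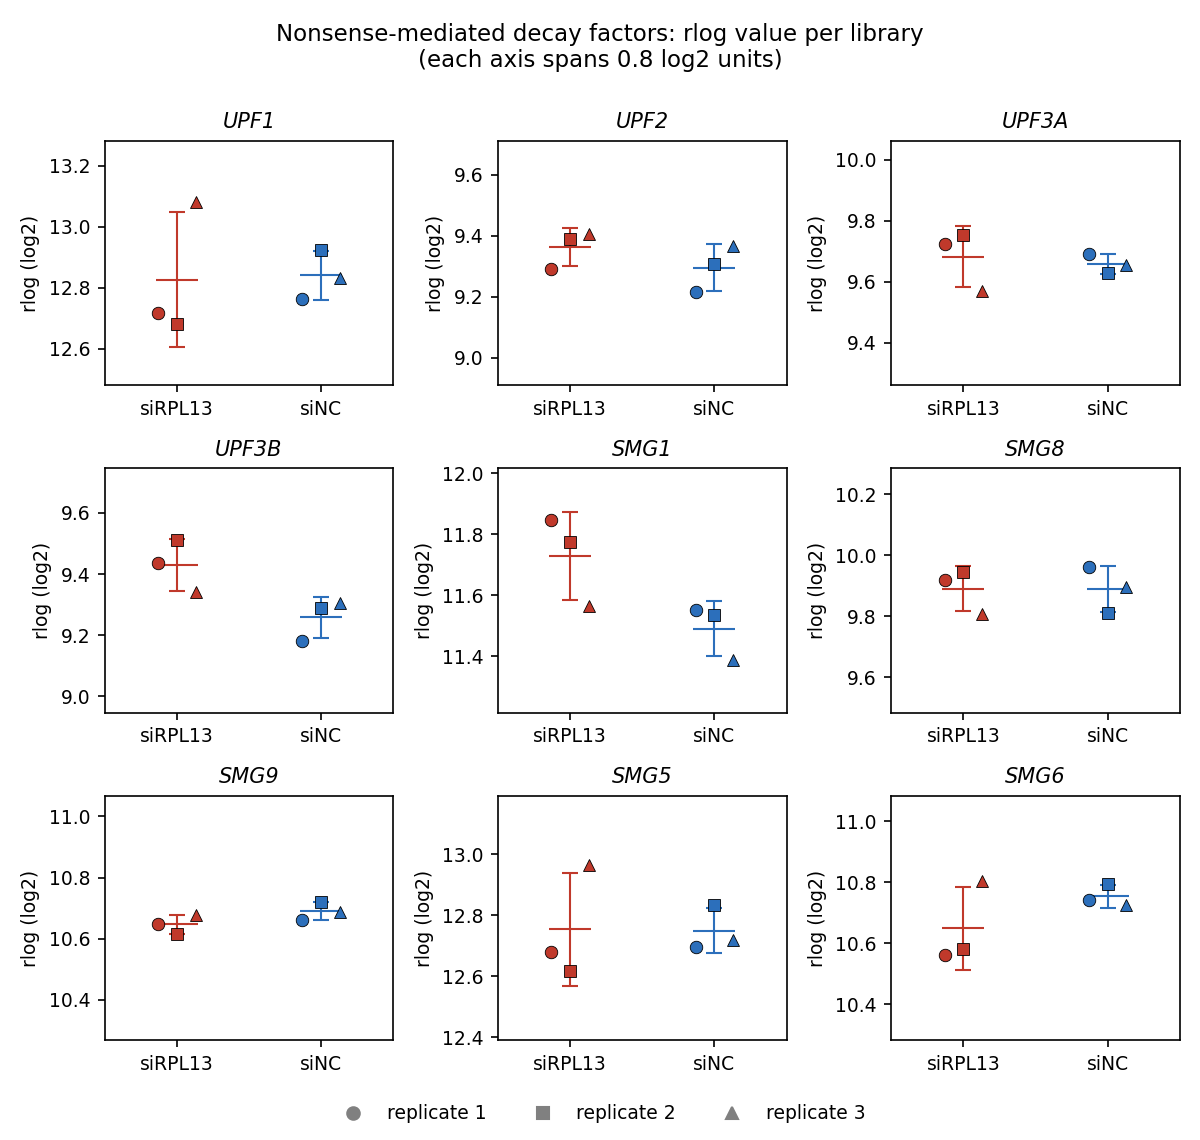
Level of each factor as an rlog value on the log2 scale (vertical axes span the same range and do not start at 0), with 1 point per library, siRPL13 in red and siNC in blue, marker shapes for replicates 1 to 3, and a bar with whiskers for the mean of 3 libraries ± SD. SMG1 and UPF3B lie above every siNC library in all 3 siRPL13 libraries, while UPF1, SMG5 and SMG6 lie lower in siRPL13 replicates 1 and 2 and highest of all in the library labelled siRPL13 replicate 3.

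SMG1 (ENSG00000157106, GRCh38 chromosome 16, 18804853 to 18926454, minus strand, protein coding) had the largest difference of the 9. It stood at 11.84, 11.78 and 11.57 in siRPL13 replicates 1 to 3 and at 11.55, 11.53 and 11.39 in siNC replicates 1 to 3. The groups did not overlap, but the library labelled siRPL13 replicate 3 lay close to siNC replicate 1. The means were 11.73 ± 0.15 in siRPL13 and 11.49 ± 0.09 in siNC (SD, n = 3 each). The 6-library difference was 0.24 ± 0.08 (SE) with an adjusted p of 0.589, and the 5-library difference of 0.32 had an adjusted p of 0.0054 (limma) and corresponds to 1.25-fold on the rlog scale. Of all genes tested, 93.0% had a smaller absolute difference in the 5-library comparison. The SMG1 call was lost in 1 of the 5 further leave-one-outs, that of siRPL13 replicate 1 (adjusted p 0.119).

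Reads of SMG1 can be shared with its pseudogenes on chromosome 16, so its value is uncertain to that extent. The 7 SMG1 pseudogenes listed were all in the table and did not follow SMG1 as a group. SMG1P7 fell by 0.36 ± 0.08 (SE, adjusted p 0.0151, limma; 6-library difference -0.23 ± 0.12), with 6.24, 6.25 and 6.64 in siRPL13 replicates 1 to 3, against 6.46 to 6.68 in siNC. SMG1P1, the one with the highest rlog, stood at 9.13, 9.10 and 8.90 in siRPL13 and at 8.92, 9.06 and 8.88 in siNC (5-library difference 0.16 ± 0.07, adjusted p 0.142, limma, and 0.09 ± 0.09 with 6 libraries). The other 5 differed by -0.04 to 0.10 in the 5-library comparison, and none of them passed. Among the 3 UPF3A pseudogenes only UPF3AP1 reached the filter, at 3.45 to 3.66 in siRPL13 and 3.57 to 3.62 in siNC.

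UPF3B (ENSG00000125351, chromosome X, 119805311 to 119852998, minus strand, protein coding) stood at 9.44, 9.51 and 9.34 in siRPL13 and at 9.18, 9.29 and 9.30 in siNC. All 3 siRPL13 libraries lay above all 3 siNC libraries, as they did for SMG1 and for none of the other 7 factors. Over all genes tested the groups failed to overlap in 13.8% with 6 libraries (6.92% higher and 6.9% lower in siRPL13). The 6-library difference was 0.17 ± 0.07 (SE, adjusted p 0.589) and the 5-library difference 0.22 ± 0.07 (adjusted p 0.0436, limma). Its call lay near the threshold and was lost in each of the 5 further leave-one-outs (adjusted p 0.0539 to 0.292).

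UPF3A (ENSG00000169062, chromosome 13, 114281584 to 114305817, plus strand, protein coding) is the weaker of the paralogs in human cells and can stand in for UPF3B. It stood at 9.72, 9.75 and 9.57 in siRPL13 and at 9.69, 9.63 and 9.66 in siNC. The library labelled siRPL13 replicate 3 was the lowest of the 6 and siRPL13 replicates 1 and 2 the highest. The 5-library difference was 0.08 ± 0.06 (95% interval -0.05 to 0.21, adjusted p 0.357, limma) and the 6-library difference 0.02 ± 0.07. Within a library, UPF3A minus UPF3B on the rlog scale was 0.29, 0.24 and 0.23 in siRPL13 and 0.51, 0.34 and 0.35 in siNC. Every siRPL13 library thus lay lower than every siNC library in this log2 ratio, the library labelled siRPL13 replicate 3 included. The means differed by -0.15 (0.25 ± 0.03 in siRPL13, 0.40 ± 0.10 in siNC, SD, n = 3 each), with a two-sided exact permutation p of 0.1, the smallest that 3 against 3 libraries allow. UPF3B alone already separated the groups, and how often other gene pairs do so was not determined.

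Promoters are shown for the 3 factors that passed the threshold, because the calls rest on them. Each window covers 250 bases before to 50 after the RefSeq transcription start (build GRCh38.p14), 5′ to 3′ on the gene's strand. The windows are chr16:18926359-18926658 for SMG1, chrX:119852914-119853213 for UPF3B and chr17:2303736-2304035 for SMG6, all on the minus strand. Capitals mark matches, on either strand, to the GC box GGGGCGGGG, the CCAAT box CCAAT and the CGCG core TCGCGAGA. Other motifs searched on both strands were the NRF1 site GCATGCGC, the ETS site CCGGAAG and the cAMP response element TGACGTCA.
SMG1: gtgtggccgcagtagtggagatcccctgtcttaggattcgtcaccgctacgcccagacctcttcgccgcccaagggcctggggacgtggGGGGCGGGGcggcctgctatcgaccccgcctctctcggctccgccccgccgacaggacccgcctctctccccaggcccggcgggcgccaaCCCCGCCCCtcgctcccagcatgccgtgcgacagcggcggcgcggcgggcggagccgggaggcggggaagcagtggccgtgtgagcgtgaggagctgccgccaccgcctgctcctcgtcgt
UPF3B: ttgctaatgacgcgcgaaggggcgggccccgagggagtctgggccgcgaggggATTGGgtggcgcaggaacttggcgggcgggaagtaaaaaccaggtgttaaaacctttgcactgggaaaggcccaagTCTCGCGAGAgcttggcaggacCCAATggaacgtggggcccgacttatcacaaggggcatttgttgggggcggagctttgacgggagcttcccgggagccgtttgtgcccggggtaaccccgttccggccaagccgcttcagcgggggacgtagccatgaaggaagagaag
SMG6: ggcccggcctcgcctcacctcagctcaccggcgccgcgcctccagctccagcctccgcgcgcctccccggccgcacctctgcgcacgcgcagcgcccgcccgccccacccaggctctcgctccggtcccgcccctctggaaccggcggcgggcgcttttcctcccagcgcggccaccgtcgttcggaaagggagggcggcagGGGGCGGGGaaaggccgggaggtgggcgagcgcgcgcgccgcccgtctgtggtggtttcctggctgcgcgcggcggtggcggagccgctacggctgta
The GC box was matched at 2 positions in SMG1 and 1 position in SMG6 and not in UPF3B, and 15.7% of all 35116 RefSeq windows held it. UPF3B held the CCAAT box on each strand, which 34.6% of windows held, and the CGCG core on both strands, at positions that overlap to form 1 palindrome.

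Windows were given for 8 of the 9 factors, 15 in all, and none for SMG8. The core TCGCGAGA lay in 3 of these 15 windows, 1 each of UPF3B, UPF3A and SMG5, and in 1.15% of all windows. It is given here in 30 bases around the match, read on the strand that holds it, with the core in capitals. The palindrome of UPF3B is shown once, on the minus strand.
UPF3B, 119 bases before the start (chrX:119853064-119853093, minus strand): aggcccaagtcTCGCGAGAgcttggcagga
UPF3A, 14 bases before the start (chr13:114281576-114281605, minus strand): ccgacgaaaccTCGCGAGAgctcggccgcc
SMG5, 30 bases before the start (chr1:156282837-156282866, minus strand): tgcggctgccaTCGCGAGAtttggcaggcg
SMG5, 81 bases before the start (chr1:156282888-156282917, minus strand): gaaaacgagttTCGCGAGAtttggtagcag
Among these 3 genes UPF3B rose, and UPF3A and SMG5 did not pass the threshold, with 5-library differences of opposite sign. The NRF1 site was found in SMG5, SMG9 and UPF3A (3.05% of all windows), the ETS site in UPF3A (10.3%) and the cAMP response element in none of the member windows (1.85%). A match is a run of letters and not a measured site.

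UPF1 (ENSG00000005007, chromosome 19, 18831938 to 18868236, plus strand, protein coding), the helicase at the centre of the pathway, stood at 12.72, 12.68 and 13.08 in siRPL13 and at 12.76, 12.92 and 12.83 in siNC. It was lower than every siNC library in siRPL13 replicates 1 and 2 and higher than all 5 others in the library labelled siRPL13 replicate 3. The 6-library difference was -0.01 ± 0.11 (SE, 95% interval -0.25 to 0.23) and the 5-library difference -0.14 ± 0.06 (95% interval -0.26 to -0.02, adjusted p 0.103, limma). That 5-library difference was -0.07 with quantile scaling, and it passed the threshold without siNC replicate 1 (adjusted p 0.0203, limma) and with library weights (0.0328). UPF2 (ENSG00000151461, chromosome 10, 11920022 to 12043170, minus strand), which bridges UPF1 and the UPF3 proteins, stood at 9.29, 9.39 and 9.41 in siRPL13 and at 9.21, 9.31 and 9.36 in siNC, with overlapping groups. Its 5-library difference was 0.04 ± 0.07 (95% interval -0.11 to 0.20), and its 6-library difference 0.07 ± 0.07 (SE).

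SMG8 and SMG9 form the complex that restrains SMG1, and neither followed it past the threshold. SMG8 (ENSG00000167447, chromosome 17, 59209400 to 59215247, plus strand) stood at 9.92, 9.95 and 9.81 in siRPL13 and at 9.96, 9.81 and 9.90 in siNC. SMG9 (ENSG00000105771, chromosome 19, 43727992 to 43754990, minus strand) stood at 10.65, 10.62 and 10.68 in siRPL13 and at 10.66, 10.72 and 10.69 in siNC. For both genes the groups overlapped over the 6 libraries. The 5-library differences were 0.04 (95% interval -0.10 to 0.18) for SMG8 and -0.06 (-0.17 to 0.06) for SMG9, so a rise of the size of that of SMG1 lies outside both intervals. With 6 libraries SMG9 differed by -0.04 ± 0.06 (SE) and SMG8 by less than its SE of 0.07. That the difference of SMG1 exceeds theirs was not tested directly. SMG8 shares 422 of its exonic bases with the gene annotated as AC099850.2 on the same strand.

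The effectors were lower in siRPL13 replicates 1 and 2 and high in the library labelled siRPL13 replicate 3. SMG6 (ENSG00000070366, chromosome 17, 2059839 to 2303771, minus strand, protein coding) cuts the target mRNA near the stop codon. It stood at 10.56, 10.58 and 10.80 in siRPL13 and at 10.74, 10.79 and 10.72 in siNC. The 5-library difference of -0.18 (adjusted p 0.0340, limma) was -0.10 ± 0.08 (SE, adjusted p 0.668) with 6 libraries. The call was lost in 4 of the 5 further leave-one-outs (adjusted p 0.0548 to 0.287), the exception being that of siNC replicate 1. SMG6 shares 22.9% of its exonic bases with HIC1 on the opposite strand, and the sources used here do not say whether counting kept strand. HIC1 stood at 4.77 to 4.80 in siRPL13 and 4.70 to 4.88 in siNC.

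SMG5 (ENSG00000198952, chromosome 1, 156249224 to 156282825, minus strand, protein coding), an adaptor that brings in decapping and deadenylation, stood at 12.68, 12.62 and 12.96 in siRPL13 and at 12.69, 12.83 and 12.72 in siNC. Its 5-library difference was -0.10 ± 0.06 (SE, 95% interval -0.22 to 0.02, adjusted p 0.233, limma), and with 6 libraries it was 0.01 ± 0.09. UPF1, UPF2, SMG5 and SMG6 had their highest value of all 6 libraries in the library labelled siRPL13 replicate 3, as did 22% of all genes tested. For 5 of the 9 factors that library deviated from the siNC mean in the opposite direction to the mean of siRPL13 replicates 1 and 2. These were UPF1, UPF3A, SMG5, SMG6 and SMG8. The share of all genes that did so was not determined, so the count is not read as particular to the factors.

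**Figure D2:**
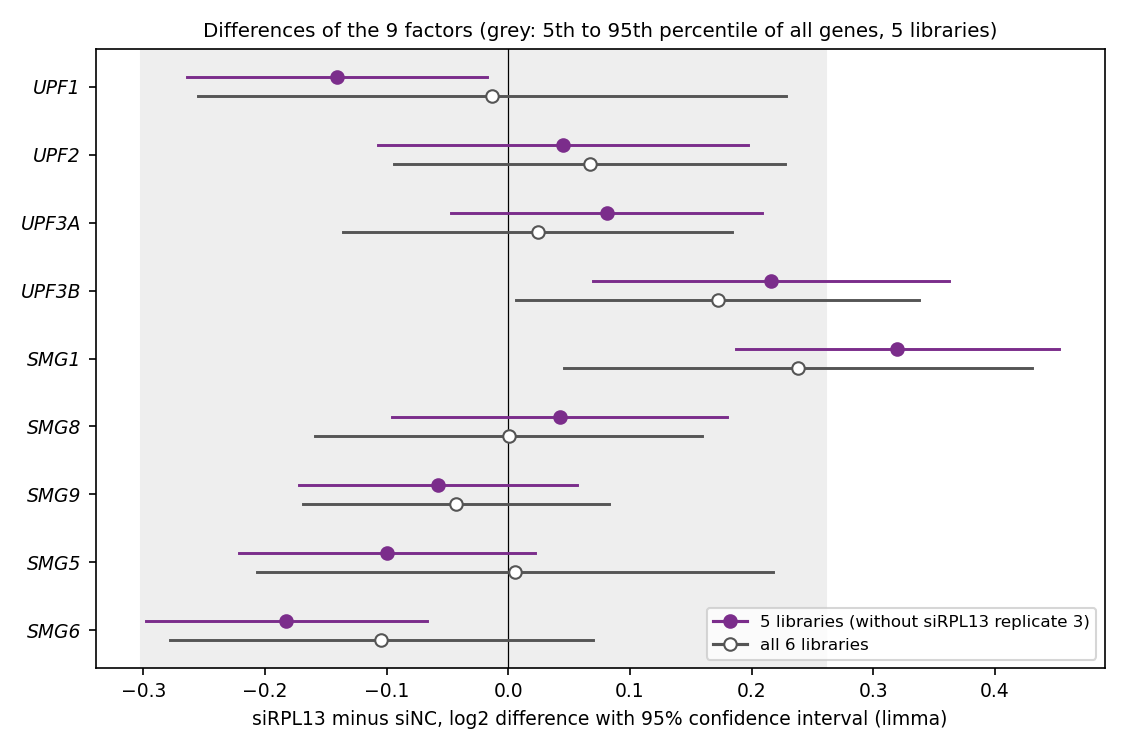
Log2 difference of siRPL13 minus siNC for each factor (horizontal axis, rlog scale), with points for the estimate and lines for the 95% confidence interval from limma, filled for 5 libraries and open for 6. The grey band runs from -0.30 to 0.26, the central 90% of differences over all genes with 5 libraries, and SMG1 at 0.32 is the 1 factor whose estimate lies beyond it.

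Per length the factors differed more among themselves than between groups. Level per kilobase was taken as rlog minus log2 of the exonic length in kilobases (union of exons, GENCODE 29). SMG5 was highest, at 10.35 ± 0.18 in siRPL13 and 10.34 ± 0.07 in siNC (SD, n = 3 each), followed by UPF1 at 9.72 ± 0.22 in siRPL13 and 9.74 ± 0.08 in siNC. UPF2 was lowest, at 6.80 ± 0.06 in siRPL13 and 6.73 ± 0.08 in siNC, and SMG1 next to it at 7.03 ± 0.15 in siRPL13 and 6.79 ± 0.09 in siNC. The ranges of SMG1 and UPF2 over the 6 libraries overlapped, as did those of UPF3A and SMG1, SMG6 and UPF3A, and UPF3B and SMG9, whereas those of the other neighbours in the order did not. SMG8, SMG9, UPF3B, SMG6 and UPF3A lay between, at 7.15 to 7.98 in siRPL13 and 7.13 to 7.98 in siNC. UPF3B was above SMG9 in the siRPL13 means and below it in the siNC means. With the longest transcript as the length, SMG5 and UPF1 remained first and SMG1 and UPF2 last, while UPF3A moved to rank 3 and SMG8 to rank 6 in siNC.

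Features that can expose an mRNA to the pathway are a long 3′ untranslated region, upstream start codons and an exon junction well downstream of the stop codon. In the principal transcripts of GENCODE 29, the 3′ untranslated region ran from 237 nt in SMG8 to 4716 nt in SMG1, against a median of 1123 nt over 12368 tested coding genes. That of SMG1 was longer than in 92.1% of those genes and that of SMG9, at 3604 nt, longer than in 86.3%. The 3′ regions of the other factors that passed the threshold were 1649 nt in SMG6 and 856 nt in UPF3B. Upstream AUG triplets in any frame numbered 13 in UPF2 and 1 each in SMG1, SMG5 and SMG9, and the other 5 had 0, while 53.6% of the coding genes had at least 1. In its principal transcript no factor had an exon junction more than 50 nt after the stop codon, which 0.429% of the coding genes had in theirs. UPF1 had 1 junction nearer than that. Other transcripts of the factors were not examined, so this feature was not assessed for them. The factor with the longest 3′ region rose, and SMG9, with the second longest of the 9, had a 5-library difference of -0.06. Whether the length of the 3′ region relates to the differences was not tested.

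**Figure D3:**
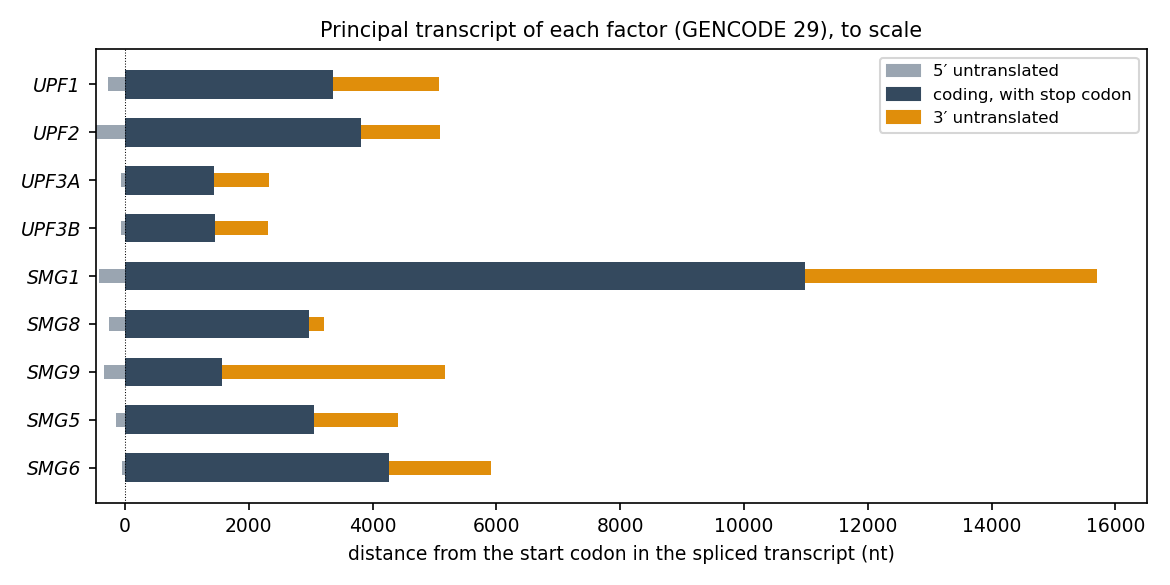
Principal transcript of each factor drawn to scale (horizontal axis, nt from the start codon), with the 5′ untranslated part in grey, the coding part in dark blue and the 3′ untranslated part in orange. SMG1 has the longest coding part and the longest 3′ region (4716 nt), and SMG8 the shortest 3′ region (237 nt).

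The wider pathway was read from 11 lists of related genes by role, 101 of whose genes were tested. With 5 libraries 5 of them rose and 17 fell, 21.8% beside 19.1% of all genes. With 6 libraries 0 passed the limma test and 6 had an unadjusted p under 0.05. Each list's count is to be read against 8.42% of all genes higher and 10.7% lower with 5 libraries. In the exon junction complex, 2 of the 8 genes tested fell and 0 rose. RBM8A was also listed but was not found by symbol, so it was not tested. EIF4A3, the helicase that anchors the complex on RNA, had 11.85, 11.86 and 12.21 in siRPL13 replicates 1 to 3, against 12.08 to 12.14 in siNC (5-library difference -0.26 ± 0.05, 6-library difference -0.14 ± 0.09, SE). RNPS1, a splicing coactivator of the complex, fell by 0.15 ± 0.05 with an adjusted p of 0.0499 (limma), and its 6-library difference was -0.06 ± 0.08. Of 13 other genes linked to the pathway 2 fell and 0 rose. MOV10, an RNA helicase that acts with UPF1 and is also interferon-induced, fell by 0.58 ± 0.08 (6-library difference -0.26 ± 0.23), with 10.67, 10.79 and 11.68 in siRPL13 replicates 1 to 3, against 11.15 to 11.45 in siNC. For both helicase genes the library labelled siRPL13 replicate 3 lay above all siNC libraries and the other siRPL13 libraries below them. STAU1, which recruits UPF1 to double-stranded 3′ regions, fell by 0.17 ± 0.05 (6-library difference -0.14 ± 0.06).

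Genes that carry out the decay downstream were called in shares near that of all genes (19.1%): 25.0% of decapping, 25.0% of deadenylation and 23.1% of exosome and Ski genes. DCP1A, CNOT3, EXOSC4 and SKIC2 were also listed but were not found by symbol, so they were not tested. Of 8 decapping and 5′-to-3′ decay genes 2 fell and 0 rose, the decapping enzyme gene DCP2 by 0.26 ± 0.06 (SE, log2) and the decapping scaffold PATL1 by 0.18 ± 0.05. With 6 libraries DCP2 differed by -0.18 ± 0.08 and PATL1 by -0.07 ± 0.09, the library labelled siRPL13 replicate 3 being the highest of all 6 for PATL1 (11.27, against 11.08 to 11.17 in siNC). Among 12 deadenylation genes 3 fell and 0 rose. These were PAN2, a subunit of a poly(A) nuclease, by 0.27 ± 0.08, the deadenylase CNOT8 by 0.20 ± 0.06 and CNOT11, a subunit of the same complex, by 0.20 ± 0.05. Their 6-library differences were -0.16 ± 0.11 for PAN2, -0.17 ± 0.06 for CNOT8 and -0.13 ± 0.07 for CNOT11. In the exosome and Ski list 2 of 13 rose and 1 fell. DIS3L, a catalytic subunit of the cytoplasmic exosome, rose by 0.32 ± 0.08, the exosome gene EXOSC1 rose by 0.25 ± 0.06 and the Ski subunit SKIC8 fell by 0.19 ± 0.05. With 6 libraries DIS3L differed by 0.22 ± 0.11, EXOSC1 by 0.15 ± 0.09 and SKIC8 by -0.13 ± 0.07. None of 6 termination and poly(A)-binding genes passed; the largest difference was that of the recycling factor ABCE1 (0.13 ± 0.06, adjusted p 0.121, limma, and 0.07 ± 0.07 with 6 libraries).

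SMG1 belongs to the phosphatidylinositol 3-kinase-related kinases, of which 5 others were tested and 1 rose. PRKDC, the DNA-dependent protein kinase, had 13.69, 13.68 and 13.30 in siRPL13 replicates 1 to 3, against 13.36 to 13.51 in siNC (5-library difference 0.27 ± 0.06, 6-library difference 0.14 ± 0.11, SE). Of 7 genes for the chaperones that assemble these kinases 0 passed with 5 libraries, and 0 had an unadjusted p under 0.05. Their largest difference was that of TTI2 (-0.12 ± 0.07, adjusted p 0.243, limma, and -0.06 ± 0.08 with 6 libraries).

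Known endogenous targets of the pathway did not move as one group. Of 17 target mRNAs 4 fell and 0 rose, 23.5% called beside 19.1% of all genes, and their median difference was -0.12 with 5 libraries and -0.04 with 6. ATF4, a stress transcription factor whose mRNA has upstream reading frames, fell by 0.40 ± 0.09 (SE), with 13.01, 12.89 and 13.43 in siRPL13 replicates 1 to 3, against 13.13, 13.53 and 13.41 in siNC. The cysteinyl-tRNA synthetase CARS1 fell by 0.38 ± 0.08, the uridine phosphorylase UPP1 by 0.29 ± 0.08 and the stress gene GADD45A by 0.22 ± 0.06. With 6 libraries the differences were -0.25 ± 0.15 for ATF4, -0.25 ± 0.12 for CARS1, -0.17 ± 0.11 for UPP1 and -0.08 ± 0.11 for GADD45A. ATF4 and CARS1 are also genes of the integrated stress response. Of 5 snoRNA host transcripts, which ribosomes translate briefly and the pathway then degrades, 2 rose (8.42% of all genes did) and 0 fell. GAS5 had 11.72, 11.59 and 11.18 in siRPL13 replicates 1 to 3, against 11.30 to 11.42 in siNC (5-library difference 0.31 ± 0.06, 6-library difference 0.15 ± 0.13). ZFAS1 rose by 0.22 ± 0.05 and differed by 0.12 ± 0.09 with 6 libraries. For both, the library labelled siRPL13 replicate 3 lay below all siNC libraries. Of 7 splicing genes with poison exons, 3 fell (10.7% of all genes did) and 0 rose, SRSF6 by 0.37 ± 0.07, SRSF2 by 0.31 ± 0.06 and SRSF7 by 0.18 ± 0.05. Their 6-library differences were -0.30 ± 0.08 for SRSF6, -0.22 ± 0.09 for SRSF2 and -0.14 ± 0.06 for SRSF7. In these genes a gene-level value does not separate the productive isoform from the one with the poison exon.

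**Figure D4:**
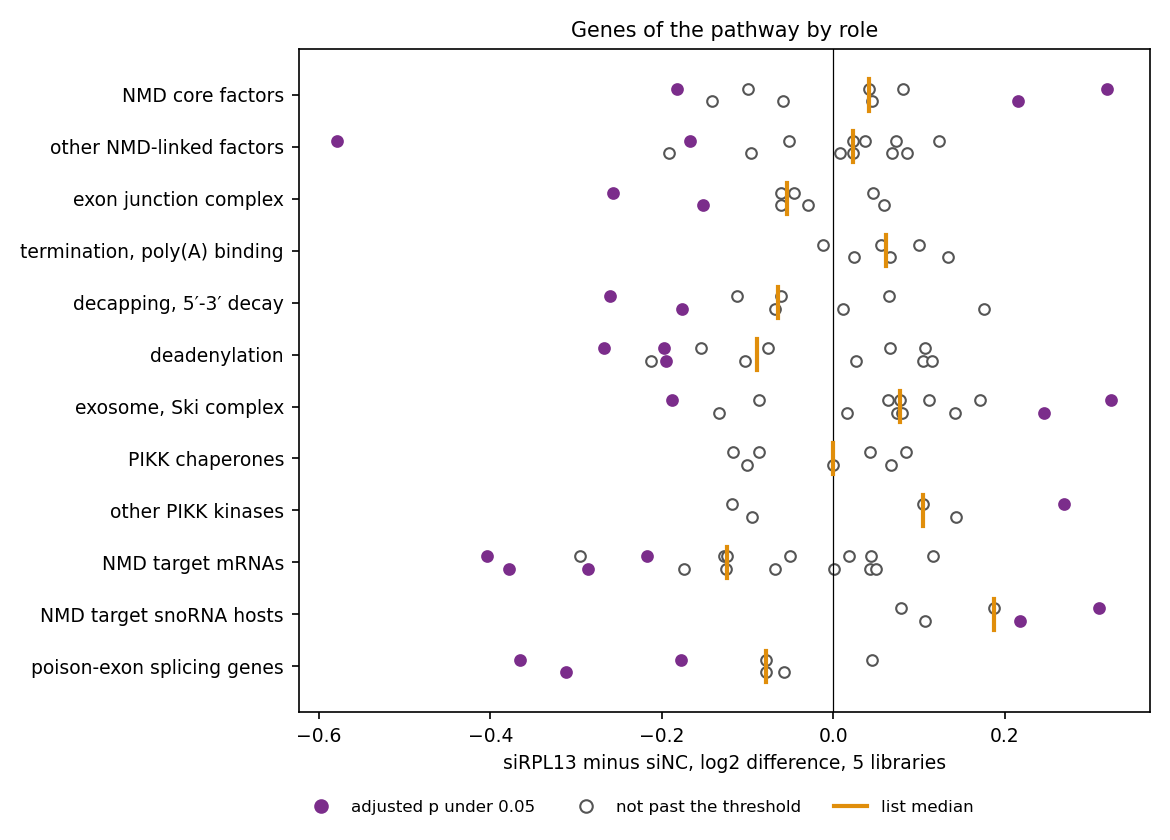
Log2 difference of siRPL13 minus siNC with 5 libraries (horizontal axis, rlog scale) for the 9 core factors and 11 lists of related genes, with 1 point per gene, filled for an adjusted p under 0.05 by limma, and a bar for the list median. The medians lie between -0.12 for target mRNAs and 0.19 for snoRNA hosts, and MOV10 at -0.58 is the lowest point.

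Genes with the profile nearest to SMG1, which rose most, and SMG6, which fell most, were found by the root-mean-square difference of siNC-centred rlog values over the 6 libraries, among the 12848 genes whose mean rlog was 5 or more. Nearest to SMG1 were EPHA4 (0.0271), an ephrin receptor, KAT6A (0.0301), a histone acetyltransferase, and TIGD1 (0.0327). Nearest to SMG6 were DKK3 (0.0126), ANKS1A (0.0166) and KANK2 (0.0184). These 3 genes share the pattern of SMG6, which their choice over the same 6 libraries largely fixes. They lay above the siNC mean in the library labelled siRPL13 replicate 3 and below it in siRPL13 replicates 1 and 2.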

How the data were processed

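Total RNA of 6 cultures was sequenced, 3 siRPL13 and 3 siNC, grouped by the labels. Cells received 2.5 µL of siRNA at 20 µM, per the labels' protocols. The authors deposited regularized-log values on the log2 scale, as the table's name states. DESeq2, HTSeq 0.6.1p1, TopHat, Trimmomatic 0.33 and build GRCh38.p7 are named without their roles, per the submitters' processing notes. Such values are scaled for library size and pulled towards each gene's mean, so differences of low genes are understated. They are not counts, and no count model was used.

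Genes whose mean rlog was 3 or more were tested with limma 3.58.1 in R 4.3.3 (eBayes with a trend, two-sided, Benjamini-Hochberg over all 15327 genes, threshold 0.05), with 6 libraries and without the library labelled siRPL13 replicate 3. The fits were tested on simulated data with 200 changed genes. Symbols came from a table that held 20499 of 21429 identifiers, positions and transcripts from GENCODE 29 (20608). Promoters are RefSeq's (GRCh38.p14). The principal transcript is the APPRIS one with the longest coding part.

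Members and lists were chosen with earlier results of these data known. Named genes were all members, their pseudogenes, and in each list up to 3 genes per direction past the threshold with the largest 5-library difference, or else the largest difference. GADD45A falls outside this rule and was added after its values were seen. The 3 nearest profiles were named for the largest rise and fall among members.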

Additional observations from a re-analysis of the deposited data

How the results depend on the processing

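With 6 libraries the count of 0 genes held under all other filters, scalings and variance models, but library weights gave 5309 and the leave-one-outs 0 to 2933. Whether the replicate numbers pair the libraries was not settled. Deviations from the group means correlated at 0.08, -0.43 and -0.33 between same-numbered libraries. The library labelled siRPL13 replicate 3 correlated best with siNC replicate 2 (0.45). A deviating library shifts its group mean and so shapes the deviations of the others, and these correlations cannot exclude pairing. A replicate block gave 0 genes, as did the fit without it. With 5 libraries the leave-one-outs gave 243 to 3748 genes instead of 2933. Of the factors 3 passed with 5 libraries, 1 (SMG1) with no filter on low values, where more genes are tested, and 0 to 3 in the leave-one-outs. The UPF3A minus UPF3B difference was -0.18 to -0.09 in the leave-one-outs.

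Signs near 0 were unstable. With 6 libraries UPF1 was 0.027 with quantile scaling and SMG5 -0.11 with library weights, against -0.01 and 0.01. In the leave-one-outs UPF1 ranged from -0.14 to 0.060, UPF3A from -0.011 to 0.081, SMG5 from -0.0997 to 0.073 and SMG8 from -0.039 to 0.042. With 5 libraries UPF2 ranged from -0.0047 to 0.094. The cause was not tested. The signs of SMG1, UPF3B and SMG6 were the same under every alternative run, as was that of SMG9, which did not pass the threshold. Further leave-one-outs of the siRPL13 group leave 1 library there, assumed to vary like the siNC libraries. Read depth is unknown.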
